A study of Mus musculus with 6 samples.

Results

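The autotaxin and lysophosphatidic acid (LPA) axis was followed through 8 genes in RNA of C2C12 cells with and without knockdown of Cnn3, the gene of the actin-binding protein calponin 3. The genes are Enpp2, which encodes autotaxin, its relative Enpp1, the LPA receptor genes Lpar1, Lpar4 and Lpar6, and the lipid phosphatase genes Plpp1, Plpp2 and Plpp3. They were taken by gene symbol, and the values of all transcripts of a gene were summed, which gave 8 of the 11835 genes measured. The 8 genes were chosen by their place in this axis with their summed FPKM in both groups, and the low Enpp2 of the knockdown, already known, so their differences are given here as a description, and whether a gene passed the test across all genes is reported only as a count with nothing read from it.

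The cells are C2C12, an established mouse myoblast line that fuses into myotubes when serum is lowered. Cells of 3 libraries were transfected with NC siRNA, a negative control (siNC), and cells of 3 libraries with CNN3 siRNA (siCNN3). All 6 libraries therefore carry a transfected siRNA, and all came from the same line, grown in fetal bovine serum and moved to horse serum to differentiate. The labels call the cells mouse myotubes and give neither the time of harvest nor which CNN3 siRNA was used, and nothing in them says that the 3 libraries of a group are separate cultures, so that any p-value measures only the spread between these libraries. For differentiation experiments the study's methods describe a repeated transfection and a harvest some days later, without naming the sequenced cultures, and call the sequenced cells differentiating myoblasts. The values are FPKM, which scale the fragments of a transcript by its length and by the mapped fragments of the library, so levels of different genes can be set side by side. No read numbers accompany the values, and the depth behind them is unknown. Summed FPKM over genes ran from 321988 to 355025 per library, and 11703 to 11789 genes were above 0.

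Cnn3 itself stood at 62.8, 61.4 and 62.8 FPKM in the siNC libraries, against 19.04, 39.2 and 25.6 FPKM after CNN3 knockdown, so the targeted gene was lower in every siCNN3 library, and replicate 2 kept the most of it. Des, the muscle intermediate filament gene, was at 113 to 125 FPKM in siNC and 84.3 to 103 FPKM in siCNN3, whereas Ckm, the creatine kinase of mature muscle, was below 1 FPKM in all 6 libraries, with a highest value of 0.911 FPKM.

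Autotaxin is a secreted enzyme that removes choline from lysophosphatidylcholine outside the cell and so makes most extracellular LPA. LPA acts on G protein-coupled receptors, which act on the actin cytoskeleton, on phospholipase C and through inhibitory G proteins, and it is ended at the cell surface by lipid phosphate phosphatases, the products of the Plpp genes. Autotaxin is well known from adipose tissue, where it is released in large amounts, and LPA is a growth signal in serum for many cultured cells. Enpp1 belongs to the same family as autotaxin, but its enzyme cuts ATP and yields pyrophosphate, an inhibitor of mineralization, and makes no LPA.

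Autotaxin is made in forms that differ by cassette exons, and these are shown because the deposited values separate them. In the mouse genome build GRCm38, Enpp2 lies on the minus strand of chromosome 15 (chr15:54838901-54952892), and 4 of its transcripts were measured. Enpp2-202 holds a coding exon of 75 nucleotides (exon 20 of 26, chr15:54851348-54851422) that no other measured Enpp2 transcript has, which is the exon known from autotaxin gamma. Enpp2-203 and Enpp2-204 share a coding exon of 156 nucleotides (exon 12 of 26, chr15:54877776-54877931), which is the exon known from autotaxin alpha. Enpp2-201 has neither, as in autotaxin beta. The lengths correspond to 25 and 52 whole codons. The exons are given as they read in the transcript, in capitals, with 15 bases of the neighbouring exons in lower case, and below them are the junctions of Enpp2-201 that skip them, with the upstream exon in capitals.
Enpp2-202 exon 20: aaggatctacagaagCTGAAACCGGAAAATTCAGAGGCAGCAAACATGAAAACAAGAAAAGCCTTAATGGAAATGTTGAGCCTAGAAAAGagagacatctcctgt
Enpp2-203 exon 12: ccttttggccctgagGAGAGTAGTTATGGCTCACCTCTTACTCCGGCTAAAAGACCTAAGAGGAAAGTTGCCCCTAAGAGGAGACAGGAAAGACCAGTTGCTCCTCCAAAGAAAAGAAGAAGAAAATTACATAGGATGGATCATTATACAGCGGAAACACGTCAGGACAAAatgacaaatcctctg
Enpp2-201 junction in place of exon 20: AAGGATCTACAGAAGagagacatctcctgt
Enpp2-201 junction in place of exon 12: CCTTTTGGCCCTGAGatgacaaatcctctg

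Enpp2 was the member that differed most between the groups. In replicate order it was at 27.3, 38.5 and 34.9 FPKM with siNC, against 7.14, 9.33 and 8.33 FPKM with siCNN3. The groups lay apart, and the highest siCNN3 value lay far under the lowest siNC value. The means were 33.5 ± 5.72 and 8.26 ± 1.10 FPKM (SD, n = 3 libraries each), so that siCNN3 held 24.6% of the siNC level. On the scale of log2(FPKM + 1) the difference, siCNN3 minus siNC, was -1.89 with a standard error of 0.17, which placed Enpp2 at rank 8 from the lowest among 11593 genes tested. In these bulk libraries, fewer cells that express a gene and less RNA per cell cannot be told apart.

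**Figure D1:**
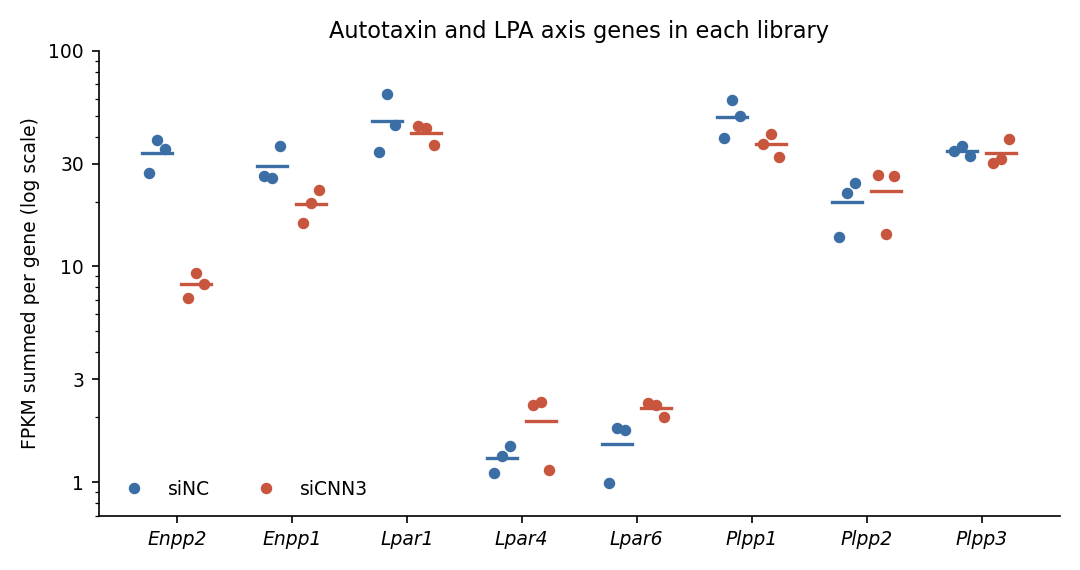
Summed FPKM per gene, on a log axis, of the 8 axis genes in each of the 3 siNC (blue) and 3 siCNN3 (red) libraries, with 1 point per library in replicate order and a line at the mean. The Enpp2 points fall from 27.3 to 38.5 FPKM in siNC to between 7.14 and 9.33 FPKM in siCNN3, while those of Lpar1, Lpar4, Plpp1, Plpp2 and Plpp3 overlap between the groups.

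Enpp1 (chr10:24637914-24712159, minus strand) was also lower in siCNN3, by much less. It was at 26.2, 25.8 and 36.1 FPKM with siNC, against 15.9, 19.6 and 22.7 FPKM with siCNN3, so the groups did not overlap, although siCNN3 replicate 3 came close to the lower siNC libraries. Means were 29.4 ± 5.86 and 19.4 ± 3.39 FPKM (SD, n = 3 each), and the log2 difference was -0.57 with a standard error of 0.19. Enpp2 and Enpp1 were at like levels in siNC, with an Enpp2 to Enpp1 ratio of FPKM of 1.04, 1.49 and 0.965. In siCNN3 the ratio was 0.449, 0.476 and 0.367, below that of every siNC library.

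Among the LPA receptors, Lpar1 (chr4:58435255-58553898, minus strand), a receptor found in most mesenchymal cells, made up nearly all receptor RNA. Lpar1 was at 34.0, 62.8 and 45.5 FPKM with siNC, against 44.9, 43.7 and 36.7 FPKM with siCNN3. The siCNN3 values all lay within the range of the siNC values, which spread widely, and the log2 difference was -0.14 with a standard error of 0.22. It turned to 0.08 without siNC replicate 2, the highest library. Lpar6 (chr14:73237895-73243294, plus strand) encodes a receptor known from hair growth. It was at 0.988, 1.78 and 1.75 FPKM with siNC, against 2.33, 2.29 and 2.00 FPKM with siCNN3. These groups did not overlap, and the log2 difference of 0.37 had a standard error of 0.19. It was 0.21 without siNC replicate 1, the lowest library. Lpar4 (chrX:106920625-106933900, plus strand), a receptor of the same subgroup as Lpar6, was at 1.10, 1.32 and 1.47 FPKM with siNC, against 2.28, 2.35 and 1.14 FPKM with siCNN3. Its siCNN3 replicate 3 sat with the siNC libraries and the other two above them, so the groups overlapped. The log2 difference was 0.32 with a standard error of 0.22, and 0.53 without that library. It was 0.22 without siCNN3 replicate 1 and 0.21 without siCNN3 replicate 2.

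As shares of the FPKM of the 3 receptor genes, Lpar1 held 94.3 ± 0.954% in siNC and 91.1 ± 0.919% in siCNN3 (SD, n = 3 each), and the groups did not overlap. Lpar6 held 3.02 ± 0.506% and 4.82 ± 0.176%, also without overlap, while the Lpar4 shares overlapped. The shares restate the summed FPKM known when the genes were chosen, and the 3 shares of a library depend on each other. Lpar4 and Lpar6 were low, with highest values of 2.35 and 2.33 FPKM. The other receptor genes Lpar2, Lpar3, Lpar5 and P2ry10 were not analysed here.

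None of the 3 phosphatase genes separated the groups. Plpp1 (chr13:112800792-112867894, plus strand), whose product acts on LPA at the cell surface, was at 39.5, 59.1 and 49.8 FPKM with siNC, against 37.1, 41.3 and 32.2 FPKM with siCNN3. The means were 49.5 ± 9.80 and 36.9 ± 4.53 FPKM (SD, n = 3 each), but siCNN3 replicate 2 lay above siNC replicate 1, so the groups overlapped, and the log2 difference was -0.40 with a standard error of 0.18. It was -0.27 without siNC replicate 2. Plpp3 (chr4:105157347-105232764, plus strand), a phosphatase that development of the vessels needs, had the smallest difference of the members, at 34.4, 36.4 and 32.6 FPKM in siNC and 30.2, 31.4 and 39.0 FPKM in siCNN3. Plpp2 (chr10:79526430-79533796, minus strand), the third enzyme of this kind, varied within both groups, at 13.7, 21.9 and 24.3 FPKM in siNC and 26.5, 14.1 and 26.2 FPKM in siCNN3. The log2 differences of Plpp3 and Plpp2 were -0.05 and 0.13, with standard errors of 0.13 and 0.30. Single libraries turned both signs, to 0.02 for Plpp3 without siCNN3 replicate 1 and to -0.10 for Plpp2 without siNC replicate 1, and Plpp2 was at 0.42 without siCNN3 replicate 2.

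In siNC the order by mean level was Plpp1, Lpar1, Plpp3, Enpp2 and Enpp1, and each of these overlapped its neighbour in range. Plpp2 came next, below the range of Enpp1, then Lpar6 and Lpar4 together at the bottom. In siCNN3 the order was Lpar1, Plpp1, Plpp3, Plpp2, Enpp1, Enpp2, Lpar6 and Lpar4. Enpp2 had moved from the upper 5 genes, among whose ranges its own lay, to sixth place, with its range apart from that of Enpp1 above it and of Lpar6 below it.

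All 8 members passed the filter on low values. By limma across all genes, 1 of the 8, Enpp2, was called lower in siCNN3 at an adjusted p threshold of 0.05 and 0 were called higher, where 0.336% of all tested genes were called lower and 1.73% higher, or 2.06% in all. Without siNC replicate 3, Enpp2 was not called, at a log2 difference of -1.86. Groups did not overlap for 2 members that were lower (Enpp2 and Enpp1) and 1 that was higher (Lpar6), beside 9.35% and 13.8% of all tested genes, or 23.1% in all. The median log2 difference of the 8 was -0.09, and that of all genes tested was 0.03. Since the contrast was known when these genes were listed, nothing is read from these counts.

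**Figure D2:**
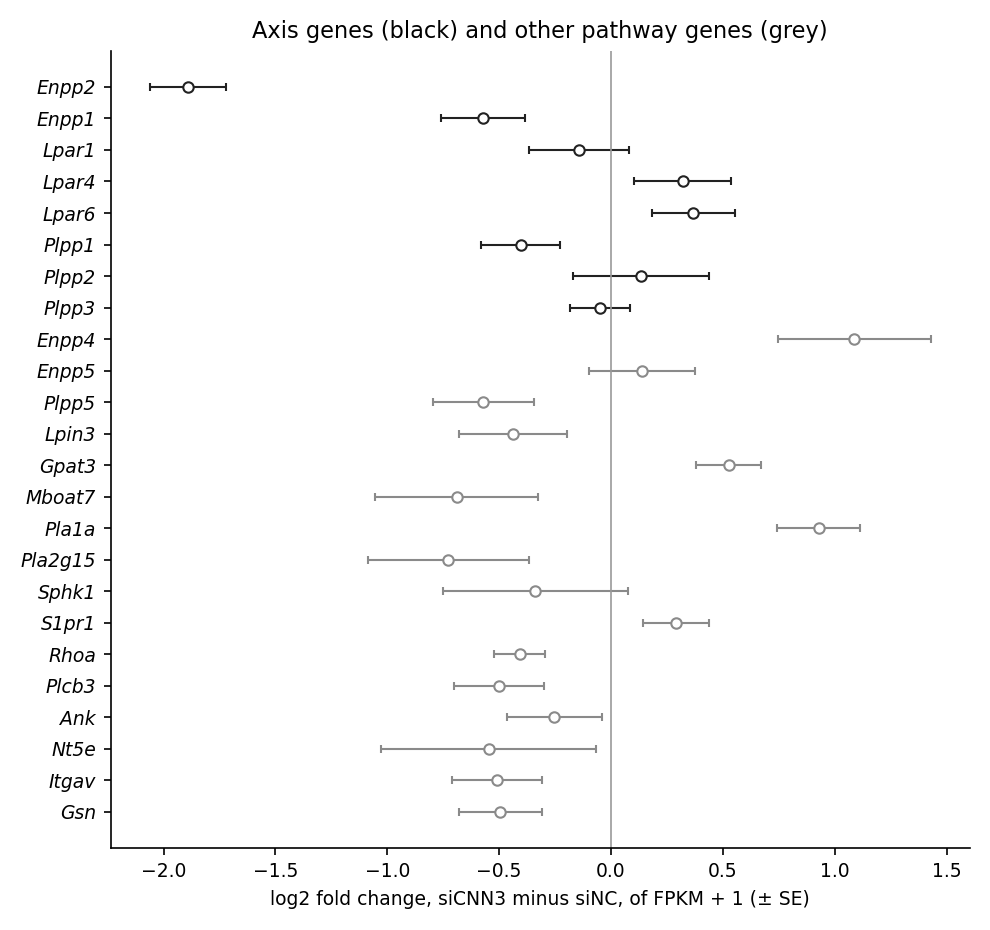
The log2 difference in FPKM + 1, siCNN3 minus siNC, with bars of 1 standard error from limma, for the 8 axis genes (black) and for the 2 genes with the largest difference in each list of other pathway genes (grey). Enpp2 lies at -1.89, and the others run from -0.73 (Pla2g15) to 1.09 (Enpp4).

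The transcripts of Enpp2 were then compared. Enpp2-202, with the exon of autotaxin gamma shown above, was at 1.99, 2.69 and 3.35 FPKM with siNC, against 0.0652, 0.0284 and 0.0188 FPKM with siCNN3. It was thus near 0 in every siCNN3 library, with a mean at 1.40% of the siNC mean. The whole of the other Enpp2 transcripts stood at 26.7% of its siNC mean, with means of 30.8 ± 5.28 and 8.23 ± 1.12 FPKM (SD, n = 3 each). As a share of Enpp2 FPKM, which the choice of genes did not use, Enpp2-202 held 7.31%, 7.004% and 9.62% in siNC and 0.913%, 0.305% and 0.226% in siCNN3. The groups did not overlap, and the exact two-sided permutation test of the share gave p = 0.1, the smallest p that 3 libraries against 3 allow. At this low level, with the depth unknown, the size of the remaining Enpp2-202 signal cannot be given an error for counting.

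Enpp2-201, without either exon, had the highest mean of the 4 forms in both groups, at 18.1, 24.9 and 12.9 FPKM with siNC, against 4.11, 6.19 and 5.72 FPKM with siCNN3. Enpp2-203 was at 2.46, 2.88 and 15.7 FPKM with siNC, against 1.17, 1.72 and 1.42 FPKM with siCNN3, and Enpp2-204, which shares its exon 12, at 4.68, 7.95 and 2.92 FPKM and at 1.79, 1.39 and 1.17 FPKM. All 4 transcripts were lower in every siCNN3 library than in any siNC library. In siNC replicate 3 the split differed from the other two siNC libraries, with 44.9% of Enpp2 FPKM in Enpp2-203. The transcripts share most of their length, and the deposited values divide the shared fragments among them by a method not given in the sources used here. The models of Enpp2-202 and Enpp2-203, of 2664 and 2745 nucleotides, hold no untranslated sequence. That of Enpp2-201 has 3095 nucleotides, of which 2586 code. The levels of these forms against each other therefore depend on the models. The form with exon 12, as the sum of Enpp2-203 and Enpp2-204, held 35.9 ± 15.1% of Enpp2 FPKM in siNC and 35.3 ± 5.45% in siCNN3 (SD, n = 3 each), with overlapping groups and p = 1 in the exact permutation test.

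**Figure D3:**
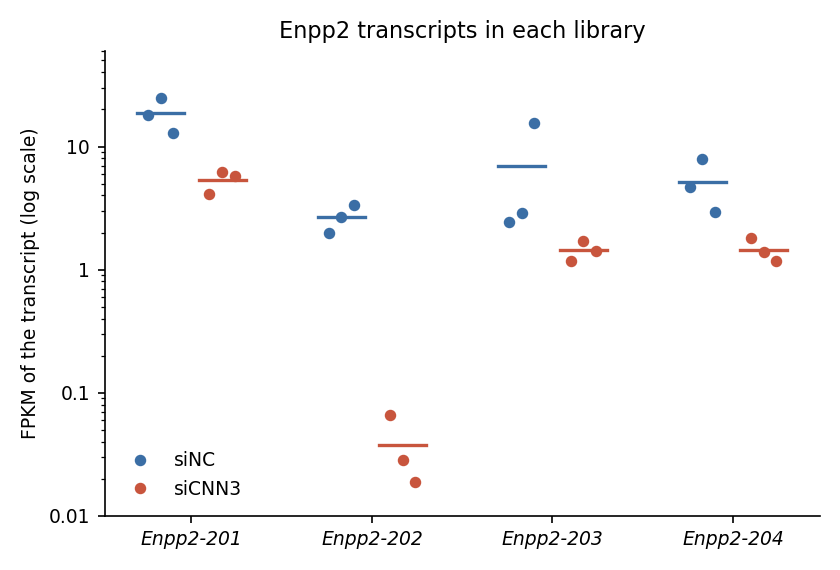
FPKM, on a log axis, of the 4 Enpp2 transcripts in each of the 3 siNC (blue) and 3 siCNN3 (red) libraries, with 1 point per library in replicate order and a line at the mean. Enpp2-202 lies between 1.99 and 3.35 FPKM in siNC and between 0.0188 and 0.0652 FPKM in siCNN3, a wider gap than for the other 3 transcripts.

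Over the members with more than 1 transcript (Enpp2, Enpp1, Lpar1, Plpp1 and Plpp2), shares of 16 transcripts were compared by the exact permutation test. The shares of 2, Enpp2-202 and Lpar1-206, were lower in siCNN3 without overlap, and those of 0 were higher, beside 5.64% lower and 5.48% higher of the 17345 transcripts compared in this way over all genes. When limma was fitted to transcripts in place of genes, Enpp2-202 was the single member transcript called, with a log2 difference of -1.81, where 0.0785% of transcripts were called lower and 0.462% higher. That call comes from the contrast already known for Enpp2 and is no independent test.

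For Lpar1 the gene total was steadier than its parts. Lpar1-201 held 90.9%, 44.1% and 75.2% of Lpar1 FPKM in siNC and 24.0%, 27.4% and 97.8% in siCNN3. Lpar1-205 held 5.03%, 4.15% and 4.89% in siNC and 60.1%, 28.3% and 0.0425% in siCNN3, so 2 siCNN3 libraries were far above all others and the remaining one below all. Lpar1-204 was listed at 0 in siNC replicate 1 and siCNN3 replicate 3 and reached 21.9 FPKM in siNC replicate 2. These 3 transcripts have the same coding exons of 1092 coding nucleotides and differ in the first exon. The split among these 3 therefore lies between transcript starts and not between coding sequences. Their shares overlapped between the groups, and the exact permutation test gave p = 0.6 for Lpar1-201, 0.7 for Lpar1-204 and 0.4 for Lpar1-205. Lpar1-202 differs from them in coding length, with 1038 coding nucleotides. It held 0.057% to 14.1% of Lpar1 FPKM in siNC and 0% to 12.0% in siCNN3, with overlap. Part of the split of Lpar1 thus also lay between transcripts of different coding length. Lpar1-206, a short model of 335 nucleotides, held 3.31 ± 0.587% in siNC and 2.48 ± 0.251% in siCNN3 (SD, n = 3 each) without overlap, at p = 0.1, again the smallest possible in this permutation test.

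**Figure D4:**
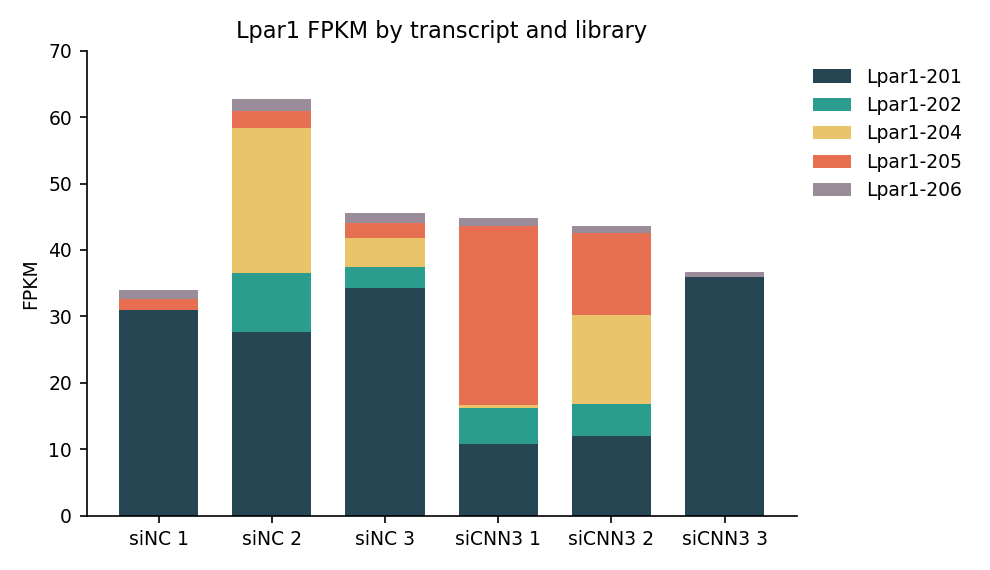
FPKM of Lpar1 in each of the 6 libraries, stacked by transcript. The stacks reach 34.0 to 62.8 FPKM in siNC and 36.7 to 44.9 FPKM in siCNN3, and Lpar1-205 (orange red) takes 27.0 FPKM in siCNN3 replicate 1, 12.3 FPKM in siCNN3 replicate 2 and 0.0156 FPKM in siCNN3 replicate 3.

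The pair of Plpp1 transcripts differ by mutually exclusive second exons, which are printed in capitals with 15 bases of the neighbouring exons in lower case, since the deposited values separate these forms. The exon of Plpp1-201 has 155 nucleotides (chr13:112834859-112835013) and that of Plpp1-202 has 152 nucleotides (chr13:112851403-112851554).
Plpp1-201 exon 2: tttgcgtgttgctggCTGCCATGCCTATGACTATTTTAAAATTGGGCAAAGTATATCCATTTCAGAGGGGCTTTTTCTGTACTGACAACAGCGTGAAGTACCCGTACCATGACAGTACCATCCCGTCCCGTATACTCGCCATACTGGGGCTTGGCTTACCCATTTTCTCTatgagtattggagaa
Plpp1-202 exon 2: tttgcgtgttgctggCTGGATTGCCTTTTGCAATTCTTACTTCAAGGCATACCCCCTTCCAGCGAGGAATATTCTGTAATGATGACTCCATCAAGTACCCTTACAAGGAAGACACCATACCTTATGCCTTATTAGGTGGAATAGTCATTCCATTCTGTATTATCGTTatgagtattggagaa

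Plpp1-201 was at 13.0, 17.1 and 16.6 FPKM with siNC, against 9.40, 12.3 and 8.33 FPKM with siCNN3, without overlap. Plpp1-202 was at 26.6, 42.0 and 33.2 FPKM with siNC, against 27.7, 28.9 and 23.9 FPKM with siCNN3, with overlap. As a share of Plpp1, Plpp1-201 held 31.7 ± 2.34% in siNC and 27.0 ± 2.50% in siCNN3 (SD, n = 3 each), and these shares overlapped (p = 0.2, exact permutation test). Enpp1-202 held over 95% of Enpp1 in every library, with a lowest share of 95.1%, and Plpp2-204 was listed at 0 in 4 of the 6 libraries. The model of Enpp1-203 also lacks untranslated sequence, with 2721 nucleotides against 6777 for Enpp1-202, so the share of Enpp1-202 depends on the models.

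Within the ENPP family, the share of Enpp2 restates its lower level. Enpp2 held 33.1%, 37.6% and 31.2% of the FPKM of Enpp1 to Enpp5 in siNC and 9.49%, 11.8% and 11.7% in siCNN3. Enpp4, which encodes a membrane enzyme that cuts nucleotides, was at 4.83, 7.84 and 7.58 FPKM with siNC, against 20.4, 19.7 and 8.63 FPKM with siCNN3. The siCNN3 libraries were all above the siNC libraries, replicate 3 only just, and the log2 difference of 1.09 with a standard error of 0.34 did not pass the test by limma over all genes (adjusted p = 0.183). The summed FPKM of the family was 98.7 ± 15.04 in siNC and 75.3 ± 4.01 in siCNN3 (SD, n = 3 each), without overlap. Without Enpp2 the sum was 55.0, 63.7 and 76.9 FPKM with siNC, against 68.05, 70.04 and 63.0 FPKM with siCNN3, so it overlapped. Opposite differences met in this remainder. The mean of Enpp1 was 29.4 FPKM in siNC and 19.4 FPKM in siCNN3, and that of Enpp4 was 6.75 and 16.2 FPKM. The shares of Enpp1, Enpp3 and Enpp5 also overlapped between the groups, while those of Enpp4 did not. Shares of Plpp1, Plpp2 and Plpp3 within the Plpp genes overlapped between the groups.

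The other genes of the pathway were counted in 9 lists of 99 genes, of which 70 were measured and tested. By limma 0 of the 70 were called in either direction, where 2.06% of all tested genes were called, and 13 (18.6%) had an unadjusted p below 0.05, beside 16.1% of all tested genes. Of the 70, 46 were lower and 24 higher in siCNN3, with a median log2 difference of -0.12 against 0.03 for all tested genes, of which 46% were below 0. Groups did not overlap for 8 that were higher (11.4%, beside 13.8% of all tested genes) and for 11 that were lower (15.7%, beside 9.35%). Without siCNN3 replicate 3, 5 of the 70 were called, Enpp4 (1.46), Pla1a (1.03), Pla2g15 (-1.15), Rhoa (-0.49) and Gsn (-0.70), each with its log2 difference in that fit. These are 7.14% of the 70, beside 5.22% of all genes tested that were called in the same fit.

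Supply of lysophospholipids, the substrates of autotaxin, held the lowest adjusted p. Pla1a, a secreted phospholipase that makes lysophosphatidylserine, was at 18.6, 13.6 and 20.5 FPKM with siNC, against 34.4, 38.7 and 29.2 FPKM with siCNN3, with a log2 difference of 0.93 and a standard error of 0.19 (limma, adjusted p = 0.0629). All siCNN3 libraries were above all siNC libraries. Pla2g15, the lysosomal phospholipase, was at 13.0, 9.37 and 9.86 FPKM with siNC, against 4.43, 4.05 and 11.7 FPKM with siCNN3 (log2 difference -0.73, limma adjusted p = 0.378), so siCNN3 replicate 3 again lay with the siNC libraries. Of the 13 genes of this list, 0 were called, and the median log2 difference was -0.09.

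Synthesis of LPA inside the cell and its acylation took 13 genes, with 0 called and a median of -0.08. Gpat3, which starts glycerolipid synthesis by making LPA, was at 3.66, 3.29 and 3.62 FPKM with siNC, against 5.70, 6.09 and 4.79 FPKM with siCNN3 (log2 difference 0.53, limma adjusted p = 0.137). Its groups did not overlap. Mboat7, an acyltransferase for lysophosphatidylinositol, had a log2 difference of -0.69 (limma adjusted p = 0.406), and of -0.25 without siCNN3 replicate 2. Among 8 other genes of lipid phosphatases and their relatives, Plppr2 and Plppr3 included, 0 were called, with a median of -0.20 and the widest difference in Plpp5, at -0.57 (limma adjusted p = 0.281), and then Lpin3, at -0.44. Without siNC replicate 1 Plpp5 was at -0.37, and without siNC replicate 2 Lpin3 was at -0.22. The 3 other ENPP genes had 0 calls and a median of 0.14, which is the value of Enpp5, and Enpp5 was at -0.11 without siCNN3 replicate 3.

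On the receiving side, 18 genes that couple LPA receptors to the cell had 0 calls and a median of -0.14. Rhoa, the GTPase through which LPA acts on the actin cytoskeleton, was at 177.8, 161.5 and 174.5 FPKM with siNC, against 118.1, 124.5 and 145.0 FPKM with siCNN3 (log2 difference -0.41, limma adjusted p = 0.134). The groups did not overlap. Plcb3, a phospholipase C that receptors switch on, had a log2 difference of -0.50 (limma adjusted p = 0.293). Of 4 genes for integrins and carriers that bind autotaxin or LPA, all 4 had a lower mean in siCNN3, with a median of -0.36 and 0 calls. Itgav, an integrin subunit, had a log2 difference of -0.51 (limma adjusted p = 0.279). Gsn, the actin-severing protein that also carries LPA, was at 156.5, 157.2 and 168.0 FPKM with siNC, against 92.2, 105.0 and 151.6 FPKM with siCNN3 (log2 difference -0.49, limma adjusted p = 0.258).

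Next to the axis, 7 genes of sphingosine 1-phosphate, a related lipid signal, had 0 calls and a median of 0.06, with the widest differences in Sphk1 (-0.34), the kinase that makes it, and in its receptor S1pr1 (0.29). Single libraries set these values, since Sphk1 was at 0.03 when siNC replicate 2 was left out and at -0.79 when siNC replicate 3 was, and S1pr1 was at 0.16 when siNC replicate 1 was. The 4 genes of pyrophosphate and phosphate handling, which lie around Enpp1, had 0 calls and a median of -0.04, with Nt5e, the ectonucleotidase CD73, at -0.55 and Ank, a transporter that raises extracellular pyrophosphate, at -0.25. The value of Nt5e ran from -0.97 without siCNN3 replicate 3 to -0.24 without siCNN3 replicate 1, and that of Ank from -0.46 without siNC replicate 1 to -0.03 without siNC replicate 2.

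The 5 genes outside the members whose profile over the 6 libraries was nearest to that of Enpp2 were Mylpf, Acta1, Tnni2, Steap4 and Fndc1. Likeness was the root mean square difference of log2(FPKM + 1), each gene set to its own siNC mean, and was 0.11, 0.21, 0.23, 0.23 and 0.25. Mylpf, a fast muscle myosin light chain, was at 22.8, 36.5 and 25.4 FPKM with siNC, against 5.88, 7.36 and 7.16 FPKM with siCNN3, with its highest library, siNC replicate 2, and its lowest, siCNN3 replicate 1, the same as for Enpp2. Mylpf was picked for nearness over these same 6 values, so this match is no separate finding. Acta1, skeletal muscle actin, and Tnni2, fast troponin I, stood at 20.1% and 19.2% of their siNC means. Steap4, a metalloreductase, and Fndc1, a matrix protein with fibronectin domains, stood at 23.2% and 23.4%.

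**Figure D5:**
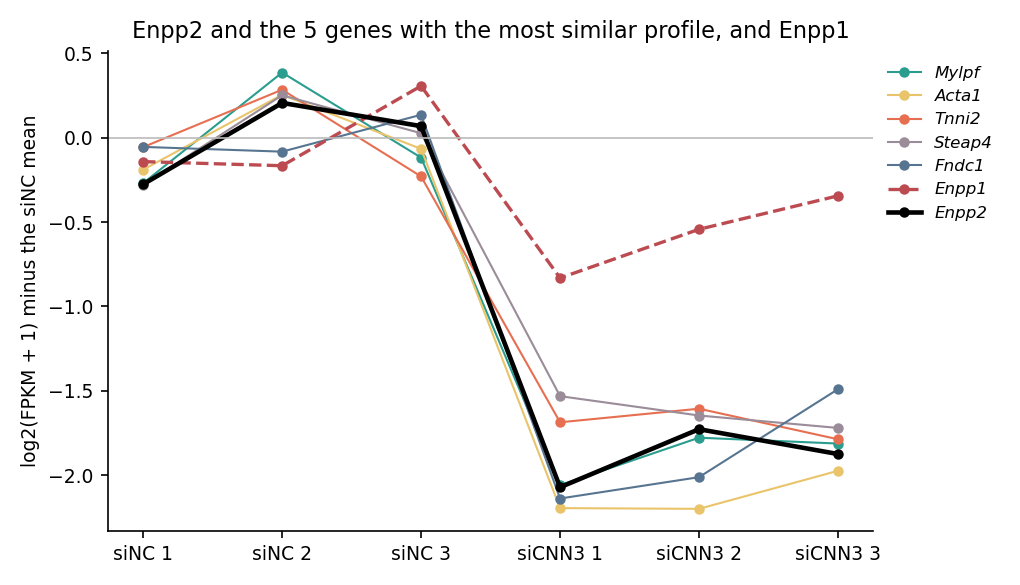
The log2(FPKM + 1) of Enpp2 (thick black), of the 5 genes with the nearest profile and of Enpp1 (dashed), each minus its own siNC mean, in the 6 libraries, with lines joining the points of a gene only to guide the eye. The 5 genes lie within a root mean square difference of 0.11 to 0.25 of Enpp2, and Enpp1 lies above them in all 3 siCNN3 libraries.

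Some muscle markers were lower after CNN3 knockdown, as was Enpp2. By limma 5 of 12 were called lower, beside 0.336% of all genes tested. The count was 1 without siNC replicate 3 or siCNN3 replicate 2, fits in which 0.173% and 0.285% of all genes were called in either direction, and 2 without siCNN3 replicate 1, where 0.397% were. The summed FPKM of 13 measured muscle genes was 184.9 to 224.3 in siNC and 116.4 to 130.9 in siCNN3, and 11 of the 12 that passed the filter were lower without overlap, beside 9.35% of all genes. Myf5, a factor of undifferentiated myoblasts, was the exception, at 3.55 to 5.64 FPKM in siNC and 5.40 to 13.0 FPKM in siCNN3. The 14 interferon response genes were all higher without overlap, beside 13.8% of all genes, with sums of 44.9 to 443.8 FPKM in siNC and 2057 to 4209 FPKM in siCNN3, lowest there in replicate 3. By limma 10 of the 14 were called higher, beside 1.73% of all genes tested. The count was 1 without siNC replicate 3, 2 without siCNN3 replicate 1 or 2, and 3 without siNC replicate 1, where 0.837% of all genes were called. Enpp2 in siCNN3 replicate 3, at 8.33 FPKM, lay between the other siCNN3 libraries. The part of the muscle and interferon genes in the difference in Enpp2 was not tested.

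Of the adipocyte markers, Fabp4, the fatty acid binding protein, was at 8.87, 8.09 and 10.9 FPKM with siNC, against 2.17, 2.97 and 3.13 FPKM with siCNN3, without overlap. By limma it was called lower (log2 difference -1.45, adjusted p = 0.0152), but not without siNC replicate 1 or 3 or siCNN3 replicate 1 or 2 (adjusted p = 0.0556 to 0.0821). It was 1 of 4 measured markers to be lower without overlap, beside 9.35% of all genes, and the others were Pparg, Cebpa and Lpl, whose groups overlapped. The summed FPKM of all 4, Fabp4 included, was 39.9 to 61.1 in siNC and 36.4 to 43.2 in siCNN3, and Adipoq, Plin1, Lep and Cfd, which define fat cells, were not analysed here. Of the endothelial markers, Tek alone was measured, at 0.681 to 1.37 FPKM in siNC and 0.733 to 1.24 FPKM in siCNN3. The 5 measured blood and macrophage markers, 4 of them globin genes and the last Cd68, were all lower in siCNN3 without overlap, beside 9.35% of all genes, with sums of 229.9 to 656.8 FPKM in siNC and 53.5 to 75.0 FPKM in siCNN3. The other genes of this list, Ptprc, Adgre1 and Csf1r, were not analysed here. Cd68 was apart only narrowly, with a lowest siNC value of 3.597 FPKM and a highest siCNN3 value of 3.555 FPKM. By limma 2 of the 5 were called, Hbb-bs (adjusted p = 0.0264) and Hbb-bt (adjusted p = 0.0495). Without siNC replicate 2, the library with the highest globins, 4 of the 5 were called. Without siNC replicate 1 or 3, or siCNN3 replicate 1 or 2, neither was called, with an adjusted p of 0.0624 to 0.0956 for Hbb-bs and 0.0796 to 0.153 for Hbb-bt, and without siCNN3 replicate 3 Hbb-bt was not called (adjusted p = 0.0669). The alpha globin genes Hba-a1 and Hba-a2 are near-identical copies, so how fragments are split between them is uncertain. Whether RNA of other cells had a part in the Enpp2 values was not tested.

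The siRNAs were set against the axis genes, because the seed of an siRNA can act on other transcripts through their 3′ UTRs. The antisense strands of the study's siRNAs are given with the seed, bases 2 to 8, in capitals.
NC siRNA: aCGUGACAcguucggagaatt
CNN3 siRNA1: uUGGUGCCaaugccuaggctt
CNN3 siRNA2: uUAACGCCaaugucaauggt
CNN3 siRNA3: uUCCGACCcauuggugccctt

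The sites that pair with these seeds, searched on the transcript strand, are TGTCACG for NC siRNA, GGCACCA for CNN3 siRNA1, GGCGTTA for CNN3 siRNA2 and GGTCGGA for CNN3 siRNA3. In the annotated 3′ UTRs of the 8 members, the longest of each gene, 0 matches were found to any of the 4, whereas 2.89%, 9.04%, 1.03% and 1.14% of 11571 genes with a 3′ UTR held one. The 3′ UTR of Enpp2 has 465 nucleotides. The members' transcripts held 0 full matches to any of the siRNAs. This says only that the letters of these seeds are not in those windows.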

How the data were processed

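RNA of C2C12 cells was sequenced, with 3 siNC and 3 siCNN3 libraries grouped by their treatment labels. The authors deposited FPKM for 24023 Ensembl transcripts in each library. The submitters' processing notes name Bowtie 0.12.2 and the builds mm8 and mm10, without saying what each was used for, and the program that estimated FPKM is not given in the sources used here. Transcripts were matched without their version to GENCODE vM21 (GRCm38), which matched 23949, and the 74 others, 0.159% to 0.220% of the FPKM of a library, were left out. FPKM were summed per gene. Depth is unknown, so no counting error could be given. In 238 transcripts a value was 0 in 1 library and at least 10 FPKM in another of the same group, and such a 0 can be a failed estimate.

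The 11593 genes whose mean over the 6 libraries reached 0.5 FPKM were fitted on log2(FPKM + 1). The fit used the moderated test of limma 3.58.1 (R 4.3.3) with its trend option, and p-values were adjusted over these genes by Benjamini-Hochberg, with calls at 0.05. The pseudocount understates the change of low genes. The shares of transcripts were compared by an exact two-sided permutation test in scipy 1.17.1 (Python 3.11.15).

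The members and lists were chosen with earlier results of these data known. Named genes are the 8 members, in each list the genes past the threshold (at most 4) or, where there were none, the 2 with the largest difference, the 3 marker genes of each list with the largest difference, and the 5 genes nearest to Enpp2 in profile. Not every marker that meets this rule is printed, and Cnn3, Ckm, Des, Myf5, Tek, Hba-a1, Cd68 and the adipocyte genes were named after their values were seen. The 9 pathway lists are those counted in the text. Exon sequences are from the GENCODE transcripts and siRNA sequences from the study's supplement. Alternatives were a pseudocount of 0.1, no filter or one at 5 FPKM, no trend, quantile normalization, scaling by median of ratios, the replicate number as a block, and each library left out.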

Additional observations from a re-analysis of the deposited data

How the results depend on the processing

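The log2 difference of Enpp2 lay between -2.03 and -1.79 over 13 alternatives. The number of members called lower, a count that rests on values known when they were chosen, was 1 in every alternative but one, and leaving out single libraries gave 0 to 1, with 0 without siNC replicate 3 (Enpp2 at -1.86), while 0 were called higher in all. The filter at 5 FPKM left Lpar4 and Lpar6 untested. Among the members not called, the sign changed over the alternatives for Lpar1 (-0.36 to 0.08), Plpp2 (-0.10 to 0.42) and Plpp3 (-0.16 to 0.02). Over all genes, 200 were called higher and 39 lower. Median-of-ratios scaling called 63 lower, quantile normalization called 199 higher and 93 lower, and leaving out single libraries gave 16 to 444 higher and 4 to 161 lower. Both counts were lowest without siNC replicate 3 and highest without siCNN3 replicate 3. The fit without siCNN3 replicate 2 also called 4 lower. The cause of these shifts was not tested. Fitting the replicate number as a block called 62 genes higher and 6 lower, with Enpp2 still called. The deviations of same-numbered siNC and siCNN3 libraries from their group means correlated at -0.28, 0.31 and -0.02 across genes. Those of differently numbered libraries correlated at -0.45 to 0.44, so the numbers were not taken to pair the libraries. Leaving out single libraries gave 0 to 1 calls among the other ENPP genes, 0 to 2 in lysophospholipid supply, and 0 to 1 each in receptor coupling and in integrins and carriers, all of them without siCNN3 replicate 3. The other lists stayed at 0 in every alternative. The share of Enpp2-202 in Enpp2 differed by -7.50 percentage points, with a range of -7.98 to -6.68 with single libraries left out, and that of Enpp2 in the ENPP family by -23.0, with a range of -24.4 to -21.2. With the depth unknown, low values such as Enpp2-202 in siCNN3, Lpar4 and Lpar6 have no known counting error.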
